A study of Mus musculus with 2 samples.

Results

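The 10 genes described here encode the machinery with which antigen-presenting cells show peptides to helper T cells: *H2-Aa*, *H2-Ab1*, *H2-Eb1*, *Cd74*, *H2-DMa*, *H2-DMb1*, *H2-DMb2*, *Ciita*, *Cd80* and *Cd86*. They were chosen by name, for their place in the MHC class II pathway, out of 31054 genes in the feature list, and all 10 were found there. A class II molecule is a pair of an alpha and a beta chain that binds peptides taken up from outside the cell and holds them at the surface for the receptor of CD4+ T cells. The invariant chain, *Cd74*, blocks the peptide groove until the molecule reaches an acidic compartment, where the H2-DM heterodimer exchanges the last invariant chain fragment for peptide, and Ciita is the master co-activator that switches on the chain genes, *Cd74* and H2-DM together. Cd80 and Cd86 are the ligands that engage Cd28 or Ctla4 on the T cell. Dendritic cells and B cells make the pathway constitutively, macrophages make it to a degree that depends on their state, and most connective tissue cells make little of it in the absence of interferon gamma. In the GENCODE annotation of GRCm38 the 6 H2 genes lie in the MHC on chromosome 17, within chr17:34119541-34316674, *Cd74* on chromosome 18 and *Ciita*, *Cd80* and *Cd86* on chromosome 16.

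Cells came from the rib callus of adult mice 4 days post injury (4 dpi), after surgical removal of 3 mm of rib bone. The control library (Sox9:CreER;R26:tdT;Smo flox/+) and the Smo cKO library (Sox9:CreER;R26:tdT;Smo flox/flox) each pooled 3 animals of 8 to 12 weeks that had received 3 tamoxifen injections, so that both genotypes carried the Cre, the reporter and at least 1 floxed allele of *Smo*, the gene of the Hedgehog signal transducer Smoothened. The Cre is driven by *Sox9*, a gene of skeletal progenitors, and hematopoietic cells were not its target by design. With 1 library a genotype there was no replicate check: every difference between the libraries compares these 2 libraries, no p-value was computed, and the intervals given are 95% exact intervals that cover counting error only.

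Of 10747 control and 10512 Smo cKO barcodes, 10057 and 9507 had 200 or more genes and under 10% mitochondrial UMIs (unique molecular identifiers, 1 per captured mRNA molecule), with medians of 8367 and 9092 UMIs. In stromal cells *Smo* was at 19.2 CPM (UMIs per 1000000 UMIs of the class; interval 18.3 to 20.2) in control and at 12.9 (12.1 to 13.8) in Smo cKO cells. Among kept cells 599 barcodes occurred in both libraries, 489 of them with UMI totals at least 10-fold apart, and 486 control and 399 Smo cKO copies were stromal, whereas 1 and 0 were dendritic-like and 2 and 9 Mrc1 macrophage-like.

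Cells were assigned to classes by markers that include no member of the gene set. Dendritic-like cells (90 control, 76 Smo cKO) had 3 or more of 18 dendritic genes such as *Flt3*, *Zbtb46* and *Ccr7*, without passing the gate of another lineage. Macrophages had 5 or more of 11 macrophage genes and were divided by whichever list they held the greater part of, into Mrc1 macrophage-like cells (672 and 673; *Mrc1*, *Ccl8*, *Folr2*) and Arg1 macrophage-like cells (574 and 971; *Arg1*, *Spp1*, *Gpnmb*). The other classes were plasmacytoid-like cells (39 and 19; *Siglech*, *Ccr9*), B-like cells (7 and 30; *Cd79a*, *Cd79b*) and stromal cells (6448 and 5061; collagen genes and *Pdgfra*). Markers of its own list stood among the 10 leading genes of each of these classes, which gating on those markers favours. In dendritic-like cells they were 3 of 10 (*Ccr7*, *Tbc1d4*, *Ccl22*). In Arg1 macrophage-like cells they were only 2 of 10, *Trem2* and *Syngr1*, without *Arg1*, *Spp1* or *Gpnmb*. The leading genes there also held *C1qa*, *C1qb* and *C1qc* of the Mrc1 list. In that class the Mrc1 list summed to 10826 and 12673 CPM and the Arg1 list to 10376 and 12617 CPM, so the name stands for the gate only. Gates left many cells near their limit, since 64 of the 166 dendritic-like cells had exactly 3 of the 18 markers. In the 7 control B-like cells, 4 plasma cell genes summed to 24180 CPM, all of it from *Jchain* and *Mzb1*. In the 30 Smo cKO cells they summed to 574 CPM, so the summed content of the class differed between the 2 libraries. How the control sum was spread over its 7 cells was not tested. A list of 5 B progenitor genes was seen in both, at 1205 and 730 CPM, with 2 of its genes at 0 UMIs in each. Median UMIs per cell were 3511 and 3591 in dendritic-like cells, 2284 and 2966 in Mrc1 macrophage-like cells, 2961 and 3607 in Arg1 macrophage-like cells and 10781 and 13212 in stromal cells.

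The chain genes and the invariant chain were highest in dendritic-like and lowest in stromal cells, among the 6 classes described. *H2-Aa*, the alpha chain of the I-A molecule, was at 8699.7 CPM (8399 to 9008) in control dendritic-like cells and at 7356 (7073 to 7647) in Smo cKO dendritic-like cells. In the control library the order then ran from plasmacytoid-like cells at 1715 CPM (1451 to 2012) through Mrc1 macrophage-like cells at 1375 (1320 to 1432) and Arg1 macrophage-like cells at 344 (319 to 371) to B-like cells at 73.1 (8.85 to 264, 2 UMIs) and stromal cells at 13.5 (12.7 to 14.3). Of the neighbours in that order, only B-like and stromal cells had overlapping intervals. In the Smo cKO library B-like cells came second, at 2504 CPM (2163 to 2885), followed by plasmacytoid-like cells at 1231, Mrc1 macrophage-like cells at 849, Arg1 macrophage-like cells at 246 and stromal cells at 12.4. There the plasmacytoid-like interval, 972 to 1539, stood apart from that of Mrc1 macrophage-like cells, 810 to 889.

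*H2-Ab1*, the beta chain of I-A, was at 7323 CPM in control and 7110.1 CPM in Smo cKO dendritic-like cells. It was at 969 and 705 in Mrc1 macrophage-like cells, 316 and 229.9 in Arg1 macrophage-like cells and 17.5 and 18.5 in stromal cells. In control plasmacytoid-like cells its 1097 CPM (889 to 1340.2) did not differ from the Mrc1 macrophage-like value beyond counting error, whereas the 1151 CPM (901 to 1449.8) of Smo cKO plasmacytoid-like cells stood above the 705 (670 to 742) of Smo cKO Mrc1 macrophage-like cells. *H2-Eb1*, the beta chain of the I-E molecule, was at 7381 and 6613 CPM in dendritic-like cells, 1050.1 and 700.3 in Mrc1 macrophage-like cells and 265 and 195 in Arg1 macrophage-like cells. In plasmacytoid-like cells it was at 812 (634 to 1024) and 479.7 (324 to 685) CPM, with intervals that overlapped those of Mrc1 macrophage-like cells in both libraries. Smo cKO B-like cells held 2139 CPM of *H2-Ab1* and 2465 CPM of *H2-Eb1*.

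*Cd74* was at 16542 (16127 to 16966) and 17161 (16727 to 17603) CPM in dendritic-like cells. Smo cKO B-like cells followed with 9548 CPM, control and Smo cKO plasmacytoid-like cells with 5373 and 4957, Mrc1 macrophage-like cells with 2922 and 2092, and Arg1 macrophage-like cells with 900.2 and 709 CPM. Control B-like cells held 52 UMIs of *Cd74*, or 1899 CPM (1419 to 2491). *Cd74*, *H2-Aa*, *H2-Ab1* and *H2-Eb1* are called the 4 core genes below. Within 5 of the 6 classes the *Cd74* part of the core UMIs varied by a few percentage points between libraries, whereas in B-like cells it was 81.2% (69.5 to 89.9) and 57.3% (54.6 to 60.1). *Cd74* contributed 41.4% and 44.9% of their UMIs in dendritic-like cells, 46.3% and 48.1% in Mrc1 macrophage-like cells and 49.3% and 51.4% in Arg1 macrophage-like cells. Plasmacytoid-like cells had a larger *Cd74* part, 59.7% (56.2 to 63.2) and 63.4% (59.0 to 67.7), and stromal cells a smaller one, 38.7% and 39.8%.

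**Figure D1:**
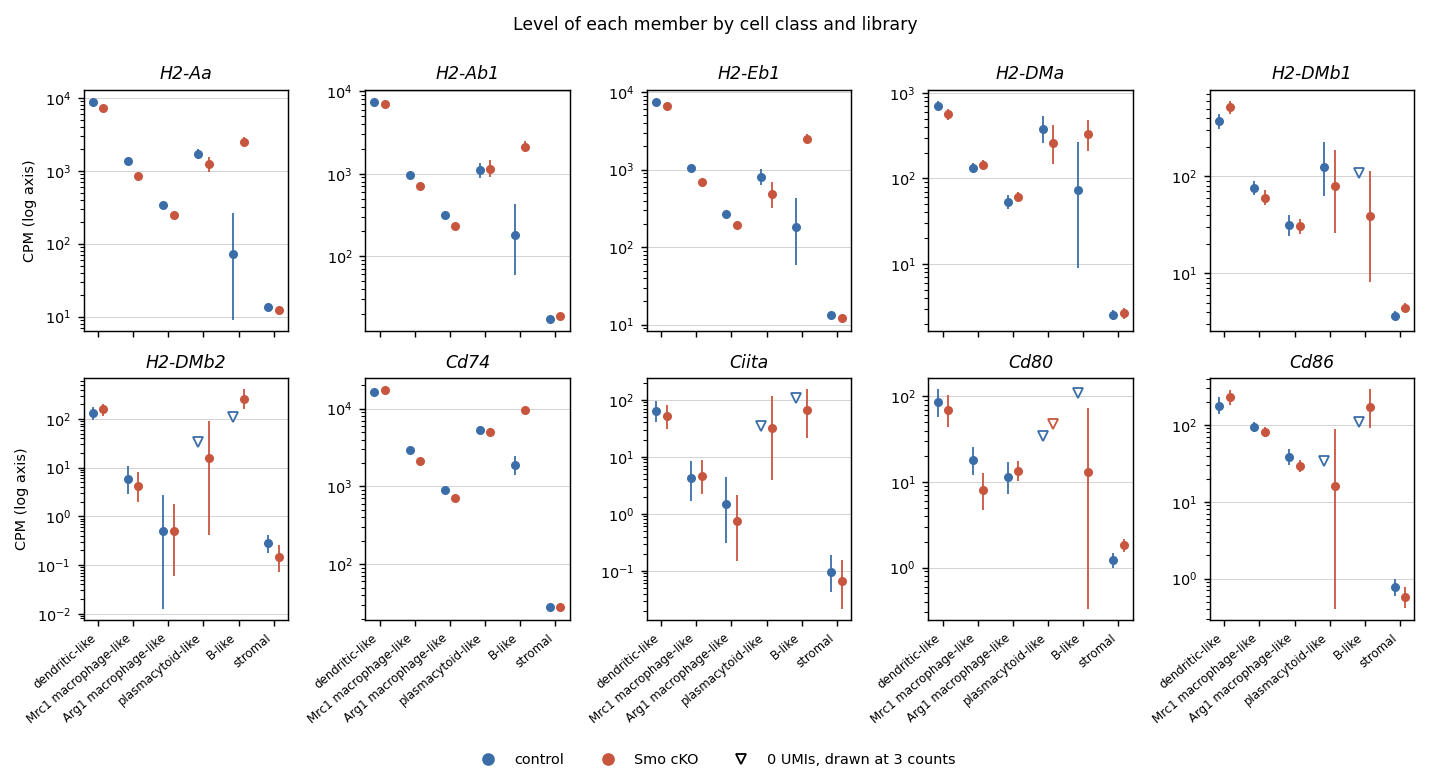
CPM (log axis) of each of the 10 genes in 6 cell classes, control in blue and Smo cKO in red, with bars for the 95% exact Poisson interval; open triangles mark 0 UMIs and are drawn at 3 counts. Dendritic-like cells had the top level of *H2-Aa* in both libraries, 8699.7 and 7356 CPM, and stromal cells the lowest Smo cKO level, 12.4 CPM; the 7 control B-like cells had 0 UMIs of 5 genes.

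Free RNA from lysed cells puts some UMIs into droplets of cells that do not express a gene, and classes that should lack the pathway set this background. The core genes summed to 72.1 (70.3 to 74.0) and 71.5 (69.6 to 73.4) CPM in stromal cells, 77.4 and 71.1 in T-like cells, 28.4 and 28.2 in muscle-like cells and 32.0 and 17.6 in endothelial-like cells. Outside the stromal class these values rest on few core UMIs, 5 and 15 in T-like, 54 and 117 in muscle-like and 16 and 7 in endothelial-like cells. The stromal value was unevenly spread, since 62.9% and 66.4% of stromal cells had no core UMI, the top 10% held 68.8% and 77.8% of the class's core UMIs and the highest cells reached 239.9 and 219 per 10000 UMIs. Stromal cells that also passed the dendritic gate were kept in the stromal class, and their part in its value was not tested. The same sum was 39947 and 38239 CPM in dendritic-like cells, 8997 and 7819 in plasmacytoid-like cells, 6316 and 4346 in Mrc1 macrophage-like cells and 1825 and 1379 in Arg1 macrophage-like cells. At least 1 UMI of a core gene was found in 97.8% and 97.4% of dendritic-like cells, and in 37.1% and 33.6% of the far deeper stromal cells. Thinned to 1000 UMIs a cell, the stromal shares were 4.43% and 3.99% and the T-like shares 3.23% and 4.85%, against 96.7% and 93.4% of dendritic-like, 48.4% and 32.8% of Mrc1 macrophage-like and 25.8% and 17.8% of Arg1 macrophage-like cells.

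Core gene levels were high in most dendritic-like cells but in a minority of macrophages. Counted as UMIs of the 4 core genes per 10000 UMIs of a cell, the lowest, median and highest dendritic-like cells were at 0, 402 and 1119 in the control library and at 0, 449.7 and 1033 in the Smo cKO library. A level above 50 per 10000, a limit set after these values were seen, was reached by 85 of 90 control (94.4%) and 63 of 76 Smo cKO dendritic-like cells (82.9%). The Smo cKO dendritic-like cells had the longer lower tail, with a 10th percentile of 11.5 against 134 in control cells. In Mrc1 macrophage-like cells the control median was 4.56 and the Smo cKO median 0, yet the highest cells, at 793 and 816, were within the dendritic-like range. The limit of 50 was passed by 189 control (28.1%; 24.8 to 31.7) and 106 Smo cKO (15.8%; 13.1 to 18.7) Mrc1 macrophage-like cells, by 51 (8.89%) and 64 (6.59%) Arg1 macrophage-like cells, and by 14 and 13 stromal cells, 0.217% and 0.257%. The top 10% of Mrc1 macrophage-like cells held 62.9% (control) and 84.3% (Smo cKO) of the class's core UMIs, and in Arg1 macrophage-like cells 88.0% and 93.5%.

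**Figure D2:**
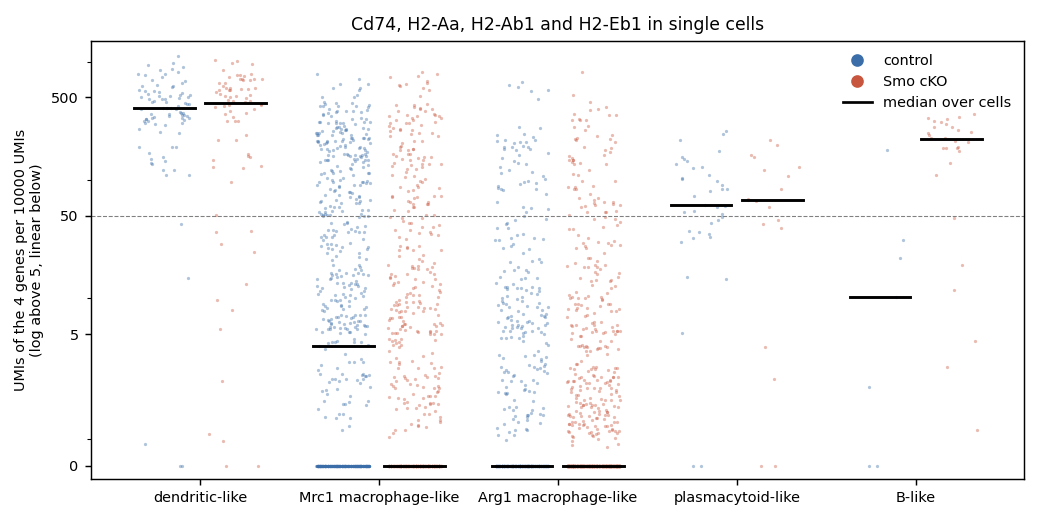
UMIs of the 4 core genes per 10000 UMIs (log scale above 5, linear below) in each cell of 5 classes, control in blue and Smo cKO in red; black bars are medians over cells and the dashed line is 50. Dendritic-like medians were 402 and 449.7, whereas Mrc1 macrophage-like cells spread from 0 to 793 and 816, with 28.1% of control and 15.8% of Smo cKO Mrc1 macrophage-like cells above the line.

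The alpha and beta chains of I-A were found together in most dendritic-like cells, but in macrophages 1 chain was often seen alone. Both *H2-Aa* and *H2-Ab1* had a UMI in 87 of 90 control dendritic-like cells, with 1 cell holding *H2-Aa* alone and none *H2-Ab1* alone. In the Smo cKO library 64 of 76 held both, 5 *H2-Aa* alone and 7 neither. In Mrc1 macrophage-like cells both were found in 207 of 672 control (30.8%) and 123 of 673 Smo cKO cells (18.3%), and all 4 core genes in 182 and 105. There *H2-Aa* alone was seen in 52 and 36 cells and *H2-Ab1* alone in 35 and 46. In Arg1 macrophage-like cells 66 and 86 held both, 30 and 38 *H2-Aa* alone and 47 and 71 *H2-Ab1* alone. Stromal cells, taken above as background, held both in 134 and 80 cells, *H2-Aa* alone in 463 and 271 and *H2-Ab1* alone in 740 and 616. The part of low counts and free RNA in cells with 1 chain was not tested.

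Class II promoters are known for a conserved module in which a TGANG element (the CRE-like X2 box) stands a fixed distance before an ATTGG element (the Y box), the sites through which Ciita is recruited. The RefSeq promoters of the members (GRCm38.p6, 250 bases before to 50 bases after the start) were searched for TGANG followed by ATTGG on the strand of the gene, 20 to 30 bases from the first base of one to the first base of the other. For 6 of the 10 members a promoter in the table was examined, and 4 of these held the pair: *H2-Aa* (chr17:34287854-34287963, minus strand), *H2-Eb1* (chr17:34305727-34305836, plus strand), *H2-DMb1* (chr17:34153051-34153160, plus strand) and *H2-DMb2* (chr17:34145109-34145218, plus strand). The stretches from 140 to 31 bases before the start are shown with both elements in capitals, to let the shared arrangement be read in the letters:
H2-Aa: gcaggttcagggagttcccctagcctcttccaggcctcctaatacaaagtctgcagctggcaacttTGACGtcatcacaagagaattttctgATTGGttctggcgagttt
H2-Eb1: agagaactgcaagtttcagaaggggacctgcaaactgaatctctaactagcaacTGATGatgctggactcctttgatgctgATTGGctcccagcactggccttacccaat
H2-DMb1: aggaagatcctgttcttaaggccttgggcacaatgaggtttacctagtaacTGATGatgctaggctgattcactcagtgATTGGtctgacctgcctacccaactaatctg
H2-DMb2: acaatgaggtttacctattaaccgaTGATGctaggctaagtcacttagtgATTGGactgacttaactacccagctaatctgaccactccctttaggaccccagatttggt

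The distances between the elements in capitals were 26, 27, 28 and 25 bases in this order. In *H2-Eb1* and *H2-DMb1* another TGATG overlaps the one in capitals and also lies within the distance searched, so a shorter distance fits there too. Capitals there mark the TGATG farther from ATTGG, and which of them is the X2 box was not tested. In *H2-DMb1* the letters that follow the overlapping TGATG, not those after the one in capitals, match the letters after the TGATG of *H2-DMb2*. The capitals of these paralogs therefore do not mark matching positions. Counted on either strand, the pair stood in 918 of all 32851 promoters of the table (2.79%) and ATTGG alone in 12289 (37.4%). The windows of *H2-DMa* (2 entries) and *Cd80* did not hold the pair. *H2-Ab1*, *Ciita* and *Cd86* had no entry, and no *Cd74* promoter was examined, since members on chromosome 18 were left out. The motif pair was chosen with the members known, and a match is a description of letters, not a bound site.

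The H2-DM genes, whose product edits the peptides on class II, were, like the core genes, higher in dendritic-like cells than in either macrophage class and in stromal cells. *H2-DMa*, the alpha chain of H2-DM, was at 709 (625 to 801) and 564 (487 to 649) CPM in dendritic-like cells, 377 and 256 in plasmacytoid-like cells, 131 and 145 in Mrc1 macrophage-like cells and 53.0 and 61.0 in Arg1 macrophage-like cells, with 2.52 and 2.65 in stromal cells. *H2-DMb1*, a beta chain, was at 371 (311 to 439) and 515 (442 to 596) CPM in dendritic-like cells, 76.2 and 60.5 in Mrc1 macrophage-like cells, 31.5 and 30.8 in Arg1 macrophage-like cells and 3.68 and 4.43 in stromal cells. Plasmacytoid-like cells held 11 and 5 UMIs of it, 126 and 79.9 CPM, and B-like cells 0 and 3 UMIs, so that Smo cKO B-like cells, at 39.1 CPM, were not above Mrc1 macrophage-like cells as they were for the core genes. The second beta chain, *H2-DMb2*, was spread over fewer classes. It was at 129 (94.9 to 172) and 156 (117 to 204) CPM in dendritic-like cells and at 261 (159 to 403, 20 UMIs in 12 of 30 cells) in Smo cKO B-like cells, but at 5.95 and 4.22 in Mrc1 macrophage-like cells and at 1 and 2 UMIs in all Arg1 macrophage-like and 0 and 1 in all plasmacytoid-like cells.

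The share of *H2-DMb2* among the UMIs of both beta chains set dendritic-like and Smo cKO B-like cells apart from macrophages and from each other. It was 25.8% (19.6 to 32.8) and 23.3% (17.996 to 29.3) in dendritic-like cells, 7.25% and 6.52% in Mrc1 macrophage-like cells, 1.56% in both libraries of Arg1 macrophage-like cells, and 87.0% (66.4 to 97.2; 20 of 23 UMIs) in Smo cKO B-like cells. The dendritic-like intervals did not overlap those of either macrophage class (3.53 to 12.9 and 3.03 to 12.02 in Mrc1 macrophage-like cells). The 2 macrophage classes overlapped, stromal cells were at 7.06% and 3.198%, within the Mrc1 macrophage-like intervals, and plasmacytoid-like cells, at 0% (0 to 28.5) and 16.7% (0.421 to 64.1), overlapped dendritic-like cells. *H2-DMb1* and *H2-DMb2* are close paralogs and neighbours on chromosome 17, and how the counting divided reads that fit both was not tested. At least 1 UMI of *H2-DMa* was found in 60 of 90 and 53 of 76 dendritic-like cells. Control dendritic-like cells with *H2-DMa* held 47032 CPM of the core genes and those without it 22619.9 CPM. In the Smo cKO library the values were 53474 and 9319 CPM. Cells with a UMI of *H2-DMa* were also deeper, at medians of 4230.0 against 2259 UMIs among control and 3777 against 3436 among Smo cKO cells, and the part of depth in these differences was not tested.

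*Ciita* was sparse everywhere, at 85 UMIs in the kept control cells and 61 in the Smo cKO cells. Dendritic-like cells, under 1% of all cells, held 23 (27.1%) and 18 (29.5%) of these. That amounted to 63.2 (40.0 to 94.8) and 52.0 (30.8 to 82.3) CPM, a UMI in 16 of 90 and 11 of 76 cells. Mrc1 macrophage-like cells were at 4.17 (1.68 to 8.59) and 4.69 (2.25 to 8.63) CPM, Arg1 macrophage-like cells had 3 UMIs in each library and stromal cells 8 and 5, 0.0973 and 0.0666 CPM. The Mrc1 macrophage-like cells in which *Ciita* was seen, 7 control and 8 Smo cKO cells, held 39003 (36088 to 42091) and 32945 (31000 to 34981) CPM of the core genes, against 5983 and 3904 CPM in those without a *Ciita* UMI. The class values of dendritic-like cells were 39947 and 38239 CPM. The 2 control and 3 Smo cKO Arg1 macrophage-like cells with a *Ciita* UMI were lower than these, at 12559 (9989 to 15590) and 26893 (24223 to 29778) CPM, but above the 1790.3 and 1293 CPM of those without. In the dendritic-like class itself the contrast was smaller, 48709 against 38072 CPM among control and 59787 against 34524 CPM among Smo cKO cells.

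The costimulatory ligands had different distributions. *Cd86* was at 179 (138 to 228) and 228 (181 to 285) CPM in dendritic-like cells, 94.7 (80.5 to 111) and 81.7 (70.0 to 94.7) in Mrc1 macrophage-like cells and 38.5 and 29.1 in Arg1 macrophage-like cells, a range across these 3 classes far smaller than that of the chain genes. *Cd80* was at 85.2 (57.9 to 121) and 69.4 (44.5 to 103) CPM in dendritic-like cells, 17.9 and 7.98 in Mrc1 macrophage-like cells, 11.5 and 13.5 in Arg1 macrophage-like cells and 1.22 and 1.82 in stromal cells. Neither ligand had more than 1 UMI in plasmacytoid-like cells. Smo cKO B-like cells had 13 UMIs of *Cd86* and 1 of *Cd80*. Both ligands were seen together in 15 of 90 and 14 of 76 dendritic-like cells, *Cd86* alone in 25 and 30, and *Cd80* alone in 12 and 6. Dendritic-like cells with a *Cd86* UMI held 49231 and 49709.8 CPM of the core genes and those without one 32081 and 26578 CPM. Among Mrc1 macrophage-like cells *Cd86* alone was seen in 128 and 133 cells and *Cd80* alone in 26 and 12.

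The source of the UMIs differed between members. Dendritic-like cells made up 0.895% and 0.799% of kept cells and held 23.9% and 26.3% of the core UMIs, Mrc1 macrophage-like cells 17.4% and 18.4%, Arg1 macrophage-like cells 6.0% and 11.2%, and stromal cells 9.75% and 10.7%. Unclassed cells, which passed no gate or had a stromal marker level between the limits for stromal and other cells, held 26.8% and 14.2%. Among them 98 control and 38 Smo cKO cells with over 50 core UMIs per 10000 lay in the dendritic graph cluster, so the classes did not take up every cell rich in the core genes. That cluster held 227 control and 147 Smo cKO cells, of which only 85 and 67 were gated as dendritic-like. The dendritic-like shares of cells and UMIs given here therefore leave out many cells of the cluster. Stromal cells held 39.1% and 40.4% of the *Cd80* UMIs and 31.1% and 30.7% of the *H2-DMb1* UMIs, less than their 64.1% and 53.2% of kept cells. The part of free RNA in these UMIs was not tested. Relative to 100 core UMIs of the same class there were 1.69 *Cd80* UMIs in control and 2.55 in Smo cKO stromal cells, against 0.213 and 0.181 in dendritic-like cells, and 5.11 and 6.20 *H2-DMb1* UMIs in stromal cells, against 0.928 and 1.35 in dendritic-like cells. *H2-DMa* was at 3.49 and 3.71 in stromal, 2.90 and 4.42 in Arg1 macrophage-like and 1.77 and 1.47 in dendritic-like cells. For all 3 genes the stromal and dendritic-like ratios differed beyond their counting intervals. For *H2-DMb1* the osteoclast-like cells (*Acp5*, *Ocstamp*) had the top ratio of the classes compared, 9.57 and 6.97.

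Dendritic-like cells were divided further by subset markers into type 1 cells (27 control, 7 Smo cKO; *Xcr1*, *Clec9a*), type 2 cells (19 and 28; *Cd209a*, *Mgl2*) and Ccr7 cells (39 and 35; *Ccr7*, *Fscn1*, *Ccl22*). Ccr7 is the receptor that guides dendritic cells to lymph nodes. The core genes summed to 46816 and 52111 CPM in type 1, 53323 and 59212 in type 2 and 26619 and 21621 in Ccr7 cells, so Ccr7 cells were the lowest of these subsets in both libraries with no overlap of intervals. *H2-Aa*, *H2-Ab1* and *H2-Eb1* were seen in 37, 37 and 36 of 39 control Ccr7 cells. In Smo cKO Ccr7 cells they were seen in 29, 24 and 28 of 35, and in all type 1 and type 2 cells. The 5 control and 6 Smo cKO cells of no subset were at 47755 and 24090 CPM. Their Smo cKO interval, 22150 to 26155, overlapped that of Ccr7 cells, 20912 to 22347.5. *H2-DMa* set the subsets further apart, at 1226 (1051 to 1421) and 1012 (735 to 1358) CPM in type 1, 778 (577 to 1025) and 862 (701 to 1048) in type 2 and 186 (123 to 271) and 203 (139.6 to 285) in Ccr7 cells. *H2-DMb1* followed the same division, at 602 and 1081 CPM in type 1 and 622 and 784 in type 2, against 48.2 and 154 CPM in Ccr7 cells. Whether the costimulatory ligands followed this division could not be told from their few UMIs. *Cd80* was at 103 (57.9 to 171) and 61.5 (29.5 to 113) CPM in Ccr7 cells and 139.997 (64.0 to 266) and 112 (59.6 to 192) in type 2 cells, with overlapping intervals, and *Cd86* at 124 (73.5 to 196) and 221 (155 to 306) in Ccr7 cells and 264 (154 to 423) and 327 (232 to 449) in type 2 cells. *March1*, the gene of a ligase that takes class II off the surface, had 0 UMIs in Ccr7 cells of both libraries (upper limits 25.4 and 22.7 CPM). Type 1 cells were at 77.0 (38.5 to 138) and 138 (50.6 to 300) CPM. Type 2 cells, on 1 and 3 UMIs, were at 15.6 (0.394 to 86.7) and 25.8 (5.33 to 75.5) CPM, with intervals that overlapped those of both other subsets. Counts per subset were small, and the 7 Smo cKO type 1 cells held 1 UMI of *Cd86* and 0 of *Cd80*.

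**Figure D3:**
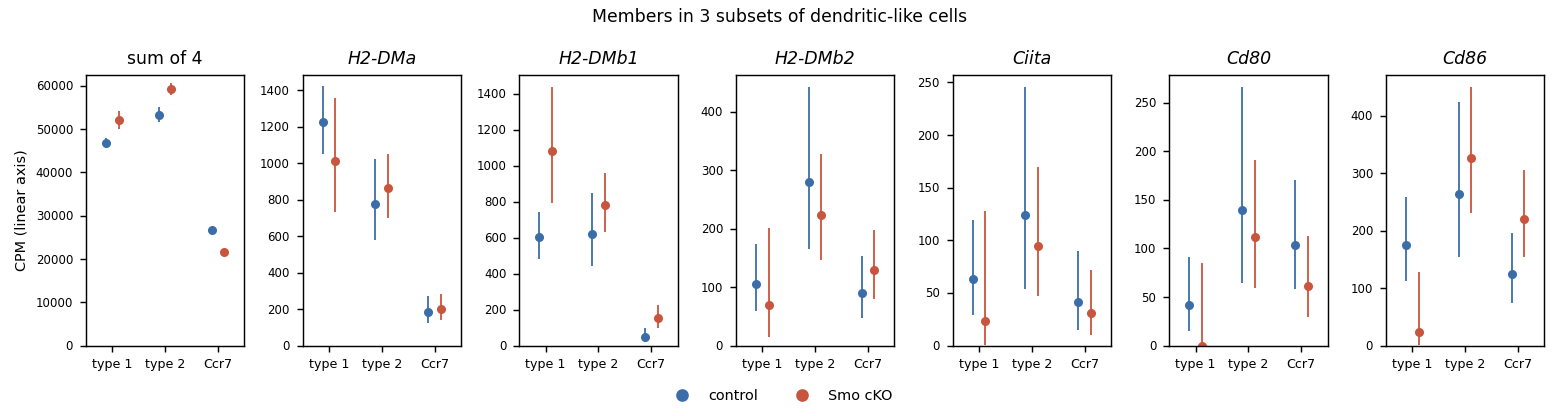
CPM (linear axes from 0) of the summed core genes and of 6 members in type 1, type 2 and Ccr7 dendritic-like cells, control in blue and Smo cKO in red, bars showing 95% exact Poisson intervals. Ccr7 cells were below both other subsets for the core genes (26619 and 21621 CPM) and *H2-DMa* (186 and 203 CPM), while the *Cd80* and *Cd86* intervals of type 2 and Ccr7 cells overlapped.

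Between the libraries, the core genes differed little in dendritic-like cells. Their sum had a log2 ratio (Smo cKO over control) of -0.06 (-0.10 to -0.03), or -0.20 relative to the median gene of the class, whose ratio was 0.13, and leaving out cells with over 2000 genes turned it to 0.05 and a class defined by graph clustering to 0.11, while a looser gate gave -0.70. *H2-Aa* was at -0.24 (-0.32 to -0.17), *H2-Eb1* at -0.16 and *H2-Ab1* at -0.04 (-0.12 to 0.04), whereas *Cd74* was at 0.05. Of the H2-DM genes, *H2-DMa* was at -0.33 (-0.61 to -0.06) and *H2-DMb1* at 0.47 (0.14 to 0.81). Type 1 cells had the top *H2-DMa* level, with an interval apart from that of type 2 cells in the control library only. They were 27 of 90 control and 7 of 76 Smo cKO dendritic-like cells, and the part of this shift in the *H2-DMa* difference was not tested. A gene was called when it differed at least 1.5-fold and reached 50 CPM in 1 library or both. All 10 members reached that level in dendritic-like cells and none was called, with 19.4% of all genes called higher and 8.26% called lower. The member median was -0.10.

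In Mrc1 macrophage-like cells the 4 core genes were lower in the Smo cKO library. Their sum was at 6316 CPM (6197 to 6438) in control and 4346 CPM (4258 to 4436) in Smo cKO cells, which gave a log2 ratio of -0.54 (-0.58 to -0.50). The ratios were -0.70 for *H2-Aa*, -0.58 for *H2-Eb1*, -0.48 for *Cd74* and -0.46 for *H2-Ab1*. *H2-DMa* was at 0.15 (-0.11 to 0.40), *H2-DMb1* was at -0.33 (-0.70 to 0.03) and *Cd86* at -0.21 (-0.53 to 0.11). Of the 7 members that reached 50 CPM, 1 (*H2-Aa*) was called lower, *H2-Eb1* was just short of 1.5-fold and 0 were called higher, with 7.89% of all genes called lower and 5.3% called higher, and the member median was -0.46 against -0.04 for all genes. *Cd80*, below that level, was at -1.16 (-2.11 to -0.26) on 30 and 17 UMIs. The share of cells with a core UMI after thinning differed by -15.5 percentage points (-20.8 to -10.2), as the plot of single cells shows for the cells above 50 per 10000.

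The same 4 genes were lower in Smo cKO Arg1 macrophage-like cells, from 1825 (1767 to 1886) to 1379 (1343 to 1416) CPM in sum, a log2 ratio of -0.40 (-0.46 to -0.34). Graph clusters of that name gave -0.90, but their 1741 control and 2089 Smo cKO cells included most Mrc1 macrophage-like cells. In the gated class *H2-Aa*, *H2-Ab1*, *H2-Eb1* and *Cd74* had ratios of -0.48, -0.46, -0.44 and -0.35, and *H2-DMa* one of 0.20 (-0.13 to 0.54). None of the 5 members at 50 CPM was called, with 1.47% of all genes called lower and 4.2% called higher. H2-DM UMIs per 100 UMIs of *H2-Aa* and *H2-Ab1* were accordingly higher in the Smo cKO macrophages, at 13.5 (12.2 to 14.9) against 9.09 (8.14 to 10.1) in Mrc1 macrophage-like cells and 19.4 (17.3 to 21.7) against 12.9 (10.9 to 15.1) in Arg1 macrophage-like cells. In dendritic-like cells the same measure was 7.54 (6.83 to 8.31) and 8.53 (7.71 to 9.42).

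The macrophage difference was not spread evenly over the cells of the gate. Graph clustering, run without the members, placed 546 control and 541 Smo cKO Mrc1 macrophage-like cells in 1 cluster, where the core genes were at 4520.0 and 1913 CPM, a log2 ratio of -1.24 (-1.30 to -1.18). In the 97 control and 74 Smo cKO cells of another cluster they were at 12748 and 10426 CPM, a ratio of -0.29 (-0.36 to -0.22). In a further cluster, with 20 and 41 cells, they were at 2553 and 2978 CPM, a ratio of 0.22 (-0.08 to 0.53). Arg1 macrophage-like cells had -1.28 (-1.37 to -1.19) in the 173 and 335 cells that fell into the first of these clusters, 0.17 (0.07 to 0.27) in 135 and 163 cells of the second, where the interval lay above 0 and that of Mrc1 macrophage-like cells below it, and -0.21 (-0.38 to -0.04) in 251 and 453 cells of the further cluster. In both gates the cells of the first cluster had the ratio farthest below 0. The 18 dendritic markers summed to 129 and 110.3 CPM in Mrc1 macrophage-like cells (3 and 2 of them at 0 UMIs, *Clec9a* and *Ccl17* in both libraries). They were at 2854 and 3007 CPM in dendritic-like cells and 193 and 226 CPM in stromal cells. The gates favour this gap, since dendritic-like cells were chosen by these markers and macrophages with 3 or more of them were left out. The part of dendritic cells in the macrophage difference was not tested. Monocyte markers summed to 441 and 577 CPM with none of the 8 at 0, near the 481 and 508 CPM of stromal cells, where none was at 0 either. The part of monocytes in the difference was not tested. Median depth, given above, was higher among Smo cKO macrophages, and its part was not tested either.

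**Figure D4:**
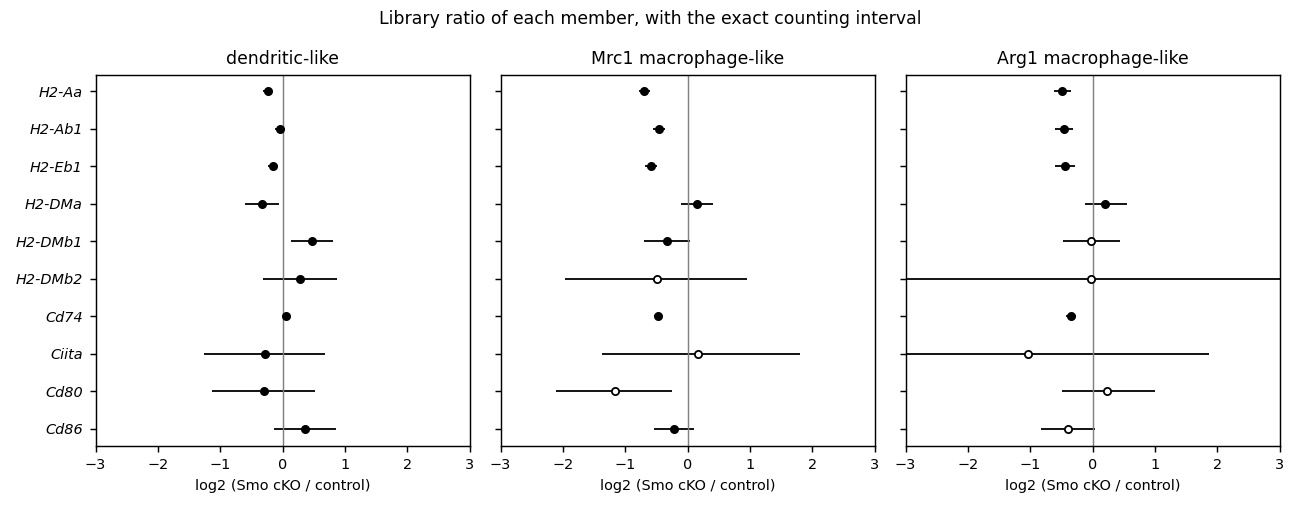
Log2 ratio (Smo cKO over control) of each member in 3 classes, with bars for the 95% exact counting interval; open points are genes below 50 CPM in both libraries, and some of their intervals run past the axis. The 4 core genes lay between -0.70 and -0.35 in both macrophage classes and between -0.24 and 0.05 in dendritic-like cells, and *H2-DMa* was at 0.15 and 0.20 in macrophages.

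In plasmacytoid-like cells, 39 and 19 in number, the core genes were at 8997 (8379 to 9648) and 7819 (7141 to 8544) CPM, a log2 ratio of -0.20 (-0.37 to -0.04) that became 0.17 when the class was taken from graph clusters. *H2-Eb1* (-0.76) and *H2-DMb1* (-0.65, on 11 and 5 UMIs) were the 2 of 6 members called lower, and 0 were called higher, with 22.2% of all genes called lower and 27.4% higher. In B-like cells the core sum was at 2338 (1800.3 to 2985) CPM in 7 control and 16656 (15755 to 17596) CPM in 30 Smo cKO cells, a log2 ratio of 2.83 (2.47 to 3.22). With 0 UMIs counted as 3, 7 members could be compared, of which 7 were called higher and 0 lower, with 27.6% of all genes called higher and 36.6% lower. This contrast sets 64 UMIs, from the 7 control cells whose pooled *Jchain* and *Mzb1* sum was high, against 1277. The make-up of the class and the genotype cannot be told apart. In stromal cells, the class that holds the skeletal progenitors at which the Cre is aimed, the core sum had a log2 ratio of -0.01 (-0.07 to 0.04), or -0.46 when the class was taken from graph clusters, and 0 of 10 members reached 50 CPM, with 2.15% of all genes called higher and 0.979% lower. *Cd80* was higher in Smo cKO stromal cells, at 0.59 (0.20 to 0.97) on 100 and 137 UMIs in 87 of 6448 and 109 of 5061 cells, a level at which free RNA cannot be told apart from expression.

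Genes of neighbouring pathways, taken as whole lists, did not share the direction of the core genes in macrophages. Of 13 class I presentation genes, 9 reached 50 CPM in Mrc1 macrophage-like cells, where 4 were called higher and 0 lower with a median log2 ratio of 0.51 (all genes -0.04). Of all genes there, 5.3% were called higher and 7.89% lower. In Arg1 macrophage-like cells 9 reached 50 CPM, and 3 were called higher and 0 lower with a median of 0.38 (all genes -0.03). There 4.2% of all genes were called higher and 1.47% lower. *B2m*, the light chain of class I, was at 3282.5 and 5851 CPM in Mrc1 macrophage-like cells (0.83) and at 2674 and 4339 in Arg1 macrophage-like cells (0.70). The immunoproteasome genes *Psmb8* and *Psmb9* were at 1.05 and 1.61 in Mrc1 macrophage-like cells. Stromal cells shared this, with 4 of 8 class I genes higher, 0 lower, a median of 0.47 (all genes 0.05) and *B2m* at 388 and 910.1 CPM (1.23). Of all genes in stromal cells, 2.15% were called higher and 0.979% lower. In dendritic-like cells 1 of 10 class I genes was higher (*B2m*, 0.71) and 1 lower (*Tap1*, the peptide transporter, -0.85 on 36 and 19 UMIs), with a median of 0.11. With 19.4% of all genes called higher and 8.26% lower there, these counts do not set the list apart. In plasmacytoid-like cells 2 of 9 were higher and 0 lower (all genes 27.4% and 22.2%). In B-like cells 0 of 10 were higher and 7 lower (all genes 27.6% and 36.6%), with a median of -0.71.

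Of 15 other class II pathway genes in the feature list, 4 reached 50 CPM in each of the dendritic-like, Mrc1 and Arg1 macrophage-like classes, and none was called in any of these, with medians of 0.16, 0.12 and 0.16. *Ctss*, the protease that removes the invariant chain, was at 1522 and 2258 CPM in Mrc1 macrophage-like cells (0.57), against the direction of the chain genes. *H2-Oa*, which restrains H2-DM, was at 118 and 133 CPM in dendritic-like cells and below 3 CPM in both macrophage classes. Among genes of the interferon gamma axis, a known inducer of Ciita, the kinase gene *Jak1* was lower in Smo cKO Mrc1 macrophage-like cells, at 148 and 90.6 CPM (-0.71), and the kinase gene *Jak2* in dendritic-like cells (-0.65). Both were named after their values were seen. The median ratio of the whole list lay above that of all genes in both macrophage classes, at 0.31 against -0.04 in Mrc1 and 0.22 against -0.03 in Arg1 macrophage-like cells. *Jak1* thus went against its list in Mrc1 macrophage-like cells. In dendritic-like cells the list median lay below that of all genes, at -0.09 against 0.13. Of 9 other costimulatory or inhibitory ligands, 3 reached 50 CPM in each of the dendritic-like and both macrophage classes and 1 was higher in Mrc1 macrophage-like cells, *Cd274* (0.59), where 5.3% of all genes were called higher. In dendritic-like cells *Cd83*, *Cd274* and *Cd40* were at 338 and 396, 115 and 121, and 52.2 and 57.8 CPM, with none called. None of the 4 T cell receptors for the members (*Cd4*, *Cd28*, *Ctla4*, *Lag3*) reached 50 CPM in dendritic-like, macrophage or stromal cells.

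**Figure D5:**
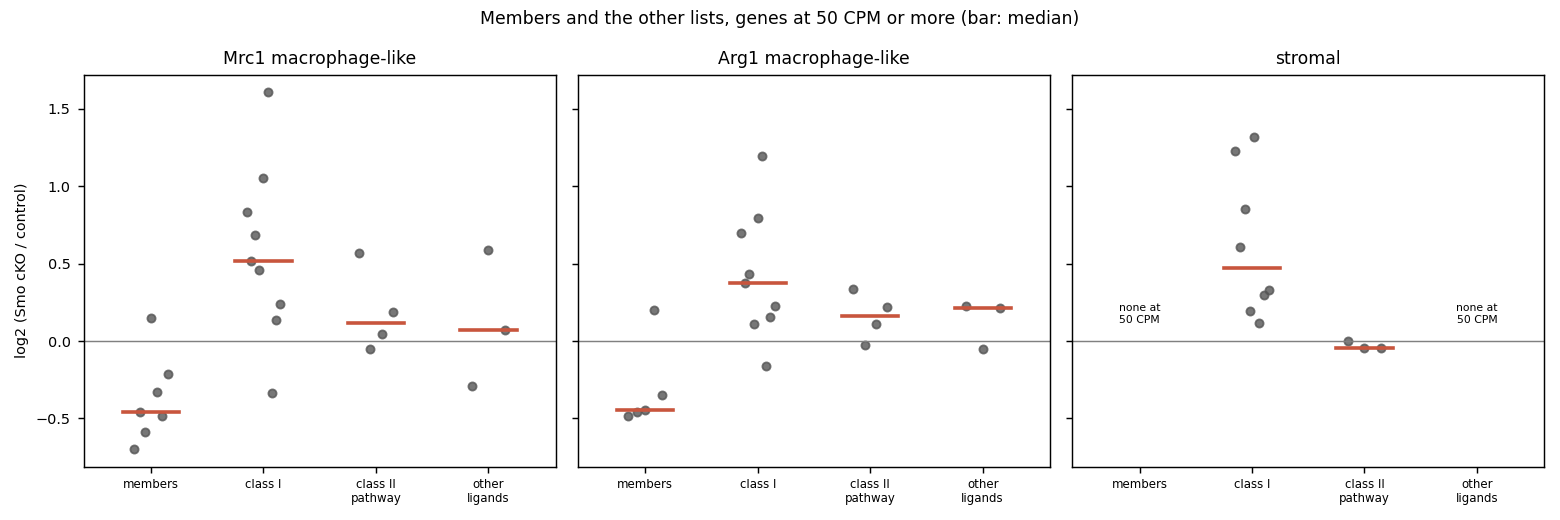
Log2 ratio (Smo cKO over control) of the members and of 3 other gene lists in 3 classes; each point is a gene at 50 CPM or more in 1 library or both, and red bars are medians. The members' medians were -0.46 and -0.44 in the macrophage classes, where class I genes had medians of 0.51 and 0.38.

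Over 25 profiles (a class in 1 library, at 15 cells or more), the genes whose log2(CPM + 10) followed the mean of the core genes most closely, among 6067 genes ranked and outside the gene set, were *Irf5* (Pearson r 0.89), *Plek* (0.89), *Arl5c* (0.89), *Alcam* (0.88), *Syngr2* (0.87), *Syk* (0.87), *Map3k1* (0.86), *Napsa* (0.86), *Cfp* (0.86) and *Gm2a* (0.84). These are descriptions over profiles that share 2 libraries and their free RNA. Of the members outside the mean, *H2-DMa* (0.97) and *H2-DMb1* (0.95) were closer to it than each of these, *Cd86* (0.87), *Cd80* (0.80) and *Ciita* (0.75) came next, and *H2-DMb2* (0.60) was the least alike. *Napsa*, which encodes an aspartic protease, was at 212 and 349.9 CPM in dendritic-like cells and below 20 CPM in both macrophage classes, whereas *Irf5* was at 121 and 119 CPM in dendritic-like and 85.1 and 63.4 CPM in Mrc1 macrophage-like cells.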

How the data were processed

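Single cells of the rib callus were captured by droplet (10x Genomics) after digestion with collagenase and dispase, filtering and removal of dead cells. The deposited values were raw UMI counts per gene and barcode, made by the authors with Cell Ranger 3.0.2 on mm10, as the submitters' processing notes name them, in 1 matrix a library. The control matrix held 105367110 UMIs and the Smo cKO matrix 112700220 UMIs.

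Barcodes with under 200 genes or with 10% or more mitochondrial UMIs were left out. The study's upper limit of 2000 genes was used only as an alternative, because 58.0% and 59.4% of the kept cells exceed it. No doublet caller was run. Cells passing the gates of several lineages were kept out of the classes, with exceptions. The monocyte gate excluded no cell from another class, and osteoclast-like cells could pass the macrophage gate. Stromal cells could also pass the dendritic, osteoclast, muscle or mural gate. A lineage needed 3 detected markers (macrophages 5 of 11), stromal cells 100 or more stromal-list UMIs per 10000 and all others at most 60, and dendritic subsets 2 markers. Class UMIs were summed per library and given as CPM with exact Poisson intervals. Ratios carry exact conditional intervals for 2 counts, shares Clopper-Pearson and differences of shares Newcombe intervals, all at 95% and for counting error only. A count of 0 was set to 3 counts where a bound was needed. Shares of cells were compared after thinning to 1000 UMIs. A gene was called at 1.5-fold or more if it reached 50 CPM in a library. With 1 library a genotype there was no test between genotypes.

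Named genes were the 10 members, the whole of 4 pathway lists in counts, and the 10 genes outside the members with the highest Pearson r to the core mean over classes of at least 15 cells. Other list genes and the leading genes of classes were named after their values were seen. The members and lists were chosen with earlier results of these data known. Gate thresholds were set after the marker distributions were seen, and the limit of 50 UMIs per 10000, the motif pair and the minimum of 15 cells after the data were seen. The list of interferon gamma axis genes was not counted, since an item on it is not reported here. Of the listed genes, 2 had no entry in the feature list. The scripts were tested on simulated counts. Python 3.11.15, numpy 2.4.6, scipy 1.17.1, pandas 2.3.3, matplotlib 3.10.9 and scanpy 1.11.5 were used. Alternatives changed the gene limit, the mitochondrial filter, the gates, the classing (graph clusters), the scaling and the genes summed, and 3 more were added after seeing the data: shared barcodes left out, cells weighted equally, and stromal CPM subtracted.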

Additional observations from a re-analysis of the deposited data

Results flagged for a closer look

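The core sum in B-like cells had a log2 ratio of 2.83 (Smo cKO over control), above 0. Dendritic-like, Mrc1 and Arg1 macrophage-like, plasmacytoid-like, monocyte-like and neutrophil-like cells had intervals below 0, as did macrophages placed in neither named class. Monocyte-like cells (70 and 106) were at 6729 and 3939 CPM, a ratio of -0.77 (-0.87 to -0.67). The macrophages in neither class (18 and 17) were at 17937 and 9095 CPM, a ratio of -0.98 (-1.14 to -0.82). Osteoclast-like cells also stood above 0, at 200.1 and 382.2 CPM and a log2 ratio of 0.93 (0.79 to 1.08), and there the top 10% of cells held 71.7% and 90.0% of the core UMIs. In the Smo cKO library 5 of the 218 cells, those with a *Cd86* UMI, held 569 of the 1005 core UMIs, and the other 213 were at 169.96 CPM. The osteoclast-like graph cluster (453 and 256 cells) went the other way, at 178 and 98.0 CPM. The differences between these classes were not tested.

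Unclassed cells held 26.8% of all core UMIs in the control library and 14.2% in the Smo cKO library. Of 964 and 958 such cells, 196 and 78 were above 50 core UMIs per 10000 and held 96.9% and 94.2% of the core UMIs of their group. Stromal cells that also passed another gate, the dendritic, monocyte, osteoclast, muscle and mural gates not counted, were 368 and 522 in number. They were at 473.9 and 152.3 CPM of the core genes, above the 72.1 and 71.5 CPM of the stromal class.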

How the results depend on the processing

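Log2 ratios of the core sum, Smo cKO over control, were recomputed under up to 11 alternatives a class. In Mrc1 macrophage-like cells all 10 values were below 0, -0.70 to -0.47, and in Arg1 macrophage-like cells all 11, -0.90 to -0.33. In B-like cells all 11 were above 0. The dendritic-like value was below 0 under 9 of 11, the plasmacytoid-like under 10 of 11 and the stromal under 8 of 10. Leaving out cells with over 2000 genes gave 0.05 in dendritic-like and -0.47 in Mrc1 macrophage-like cells. A stricter gate gave -0.29 in dendritic-like, -0.69 in Mrc1 and -0.33 in Arg1 macrophage-like, -0.01 in plasmacytoid-like and -0.25 in stromal cells. A looser gate gave -0.70 in dendritic-like, -0.70 in Mrc1 and -0.65 in Arg1 macrophage-like, 3.72 in B-like and -0.20 in stromal cells. Graph clusters gave 0.11 in dendritic-like, -0.90 in Arg1 macrophage-like, 0.17 in plasmacytoid-like, 1.79 in B-like and -0.46 in stromal cells, and were not run for Mrc1 macrophage-like cells because no cluster took that name. The clusters named for Arg1 macrophages held most of the Mrc1 macrophage-like cells too. Division by the median gene gave -0.20 in dendritic-like, -0.50 in Mrc1 macrophage-like and -0.07 in stromal cells. Without *Cd74* the values were -0.15 in dendritic-like, -0.59 in Mrc1 macrophage-like and 4.02 in B-like cells. Weighting cells equally gave -0.01 in dendritic-like, -0.59 in Mrc1 and -0.53 in Arg1 macrophage-like and -0.02 in plasmacytoid-like cells, and leaving out shared barcodes 0.08 in stromal cells. The cause of these changes was not tested. No paired analysis was possible because each genotype has only 1 library. For the same reason no replicate could be left out. Depth limits *Ciita*, *Cd80* and *H2-DMb2*, which rest on few UMIs in macrophages.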

Other observations

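Mrc1 macrophage-like cells above 50 core UMIs per 10000 (189 control, 106 Smo cKO) were set beside those with no core UMI (291 and 374). The 8 genes ranked highest of 2278 by a higher level in both libraries, chosen after their values were seen, were *Plbd1*, *Ramp3*, *Ccr7*, *Ifitm1*, *Il1b*, *Arl5c*, *Pgf* and *Il7r*, of which 5 were also among the 10 leading genes of dendritic-like cells. *Ccr7* was at 56.6 against 2.83 CPM in control and 86.002 against 0.866 CPM in Smo cKO cells, and *Il1b*, an inflammatory cytokine gene, at 248 against 52.4 and at 1428 against 88.4 CPM. Of the 8 genes ranked lowest, 3 were globin genes, led by *Hbb-bt* at 102 against 1081 and 181 against 893 CPM, and the others were *Saa3*, *Cbr2*, *Syngr1*, *Serpinb6a* and *Folr2*, a marker of resident macrophages, at 34.9 against 126 and 9.21 against 142 CPM. The part of erythroid RNA in this contrast was not tested. Dendritic markers summed to 181 against 99.2 and to 194 against 97.0 CPM, monocyte markers to 645 against 343 and 1057 against 511 CPM, the Mrc1 macrophage list to 12635 against 18381 and 12559 against 21434 CPM, and the Arg1 macrophage list to 2383 against 5297 and 2863 against 5567 CPM.

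Arg1 macrophage-like cells above the limit, 51 and 64 in number, also had more *Il1b* than the 357 and 657 with no core UMI, 444 against 68.0 and 959 against 134 CPM. The cycling gene *Top2a* had 0 UMIs against 73.9 CPM in control cells and was at 11.7 against 66.2 CPM in Smo cKO cells. Globin genes were again 3 of the 8 ranked lowest, with *Hbb-bs* at 302 against 1250.1 and 464 against 2128 CPM.

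Outside the 6 classes of the comparisons, the core sum in neutrophil-like cells was 1196 and 378 CPM (-1.66), with 97.9% of the control UMIs and all Smo cKO UMIs in the top 10% of cells.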
